A study of Mus musculus with 12 samples.

Results

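The m6A peaks described here lie in the genes of cultured mouse keratinocytes with the most listed peaks. These are genes whose name stands on 8 or more rows of the day 4 peak list or of the day 0 peak list. The rule selected 306 of the 7992 genes with any listed peak, or 3.83%. These genes hold 5191 of the 38343 listed peaks (13.5%), which are 2439 of 18423 at day 4 (13.2%) and 2752 of 19920 at day 0 (13.8%). Because the number of rows chose the genes, that number and every other value of the peak lists are given as description without a test.

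The cells were primary keratinocytes taken from newborn mouse skin and grown to passage 3 in low calcium over a layer of 3T3 fibroblasts, a mouse line here kept from dividing with mitomycin C. Day 4 cells had been differentiated by a calcium shift, and day 0 cells were undifferentiated; neither group carried a stated mutation or drug. Each day had 3 m6A-immunoprecipitated and 3 input libraries of polyadenylated RNA, 12 in all. The labels do not say whether the 3 libraries of a group came from separate animals or cultures, so the spread between them may be technical.

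Every deposited value is already combined over libraries. Depth per library is therefore unknown, no value per library can be shown, and no test across libraries could be rerun. All 8 keratinocyte markers checked (Krt5, Krt14, Trp63, Itga6, Itgb4, Krt15, Cdh1, Dsp) appear in the authors' deposited table of expression changes, at mean normalized counts of 3145 to 209477. Of 14 fibroblast markers, the authors' deposited table lists 6, of which 5 were higher at day 4 and 1 lower, at mean normalized counts of 50.9 to 2763. It gives one mean per gene and no level per day, and Col1a1, Col1a2, Col3a1, Dcn, Lum and Pdgfrb are not among those listed. The part of feeder RNA in the results below was not tested, and in bulk RNA fewer cells of a type and less RNA per cell cannot be told apart.

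N6-methyladenosine is the most common internal modification of mammalian mRNA. It is written in the nucleus by a complex around Mettl3 and Mettl14, mostly at an adenosine inside a short consensus, and is found above all in long internal exons and around stop codons. Proteins that bind the mark, such as the Ythdf family, influence how long the RNA lasts and how well it is translated. In m6A-seq an antibody pulls down RNA fragments that carry the mark, and a peak is a stretch where the pull-down holds more reads than the input, so a single peak may cover several methylated bases.

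Sequence was at hand only around RefSeq starts of assembly GRCm38.p6, in windows that hold the first 50 bases transcribed from a start. In 20 of the 306 genes a peak or a called site of at most 500 bp covered at least 1 of these bases, 12 with a day 4 peak, 13 with a day 0 peak and 4 with a called site. These starts are not always the outermost of the gene: 8 were at the 5′ end of the annotated span, 7 up to 1000 bp inside it and 5 further in. The usual consensus of the mark (A, G or T, then A or G, then AC, then A, C or T) was looked for on the transcribed strand only, since the mark sits on RNA. It stood in the first 50 bases of 7 of these 20 genes (35%), beside 54.4% of 32817 such windows of all genes. The stretches below, from the 6 genes where the consensus and its flanks lay wholly under the peak or site, show which bases the antibody signal covered. The consensus is in capitals, 5′ to 3′, and a match is not a measured methylated base.

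Zfc3h1, chr10:115384976-115385000, plus strand: ctaggagaggGAACTggcgagcgac
Fat1, chr8:44950210-44950234, plus strand: aaaaatggggAGACActTGACCttg
Hjurp, chr1:88277540-88277564, minus strand: tacttttgaaAGACCctattagcgc
Ep300, chr15:81586214-81586237, plus strand: gaaggaggaGGACAgcgccgagga
Dsp, chr13:38151323-38151343, plus strand: agcggggaggAGACTcgcacc
Aim1, chr10:44004828-44004846, minus strand: ggaaAAACTtggcactctt
Aim1, chr10:44004797-44004817, minus strand: gaaggagaagGAACAccagga

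The Zfc3h1 stretch was under a peak on both days. Zfc3h1 encodes a zinc finger protein that links nuclear polyadenylated RNA to the exosome, and its first peak ran over 100 bp at day 4 with an enrichment score of 66.0, and over 50 bp at day 0 with a score of 36.7. The authors' deposited table calls a gain of methylation at the same 100 bp, with a log fold change of 2.21 at a false discovery rate of 0.0427. The Fat1 stretch was also under a peak on both days, with a score of 2.93 at day 4 and 3.45 at day 0. Fat1 encodes a giant protocadherin, and this start lies 17108 bp inside its span.

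The peaks over the starts of the next 3 genes stood in a single list. Ep300, a histone acetyltransferase, had one at day 4 with a score of 12.6, and Aim1 (RefSeq symbol Crybg1) one at day 4 with a score of 6.70, over a start 143982 bp inside its span. Hjurp, the chaperone of the centromeric histone, had one at day 0 with a score of 9.45. The Dsp stretch lay under a called site and no peak: the authors' deposited table gives its first 250 bp a gain of 3.55 at a false discovery rate of 0.0438. Dsp encodes desmoplakin, which anchors keratins to desmosomes.

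The scaffold gene Ahnak had the most listed peaks, 35 at day 4 and 36 at day 0. It lies on chromosome 19 from 8989284 to 9076935 (GRCm38.p6, plus strand) and codes for a giant protein beneath the plasma membrane. All 35 of its day 4 peaks overlapped a day 0 peak, and 34 of its 36 day 0 peaks overlapped a day 4 peak. Scores within Ahnak were low: the median was 2.57 at day 4 and 2.55 at day 0, and the highest 12 at day 4 and 15.1 at day 0. The lowest, a 50 bp day 4 row, had a score of 0.96 with the authors' unadjusted p at 0.874, one of 4 day 4 member peaks above 0.05; no day 0 member peak was above it.

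The next genes were likewise covered on both days. Dst, which codes for dystonin, a linker of cytoskeletal filaments, had 26 at day 4 and 30 at day 0. The kinase gene Wnk1 had 21 at day 4 and 24 at day 0. Kmt2a, a histone H3 lysine 4 methyltransferase, and Plec, the plakin that links keratin filaments to hemidesmosomes, each had 16 at day 4 and 18 at day 0. Srrm2, a core protein of nuclear speckles, went the other way with 18 at day 4 and 14 at day 0. The nuclear long noncoding RNA Malat1, whose gene spans only 6.98 kb, had 15 at day 4 and 14 at day 0. Of the 306 genes, 61 had 20 or more rows in the lists together.

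The days differed more among the remaining genes. In all, 124 genes reached 8 peaks in each list, while 70 did so only at day 4 and 112 only at day 0. Counts within 2 of each other were found in 169 genes. More peaks at day 4 were listed for 107 genes, fewer for 161 and the same number for 38. At the edge of the rule, the 123 genes whose larger count is 8 had 817 rows at day 4 and 883 at day 0; the 195 genes just outside it, with 7, had 1113 at day 4 and 1173 at day 0. The cut-off thus runs through a continuous range of counts, as the plot of peaks per gene shows.

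**Figure D1:**
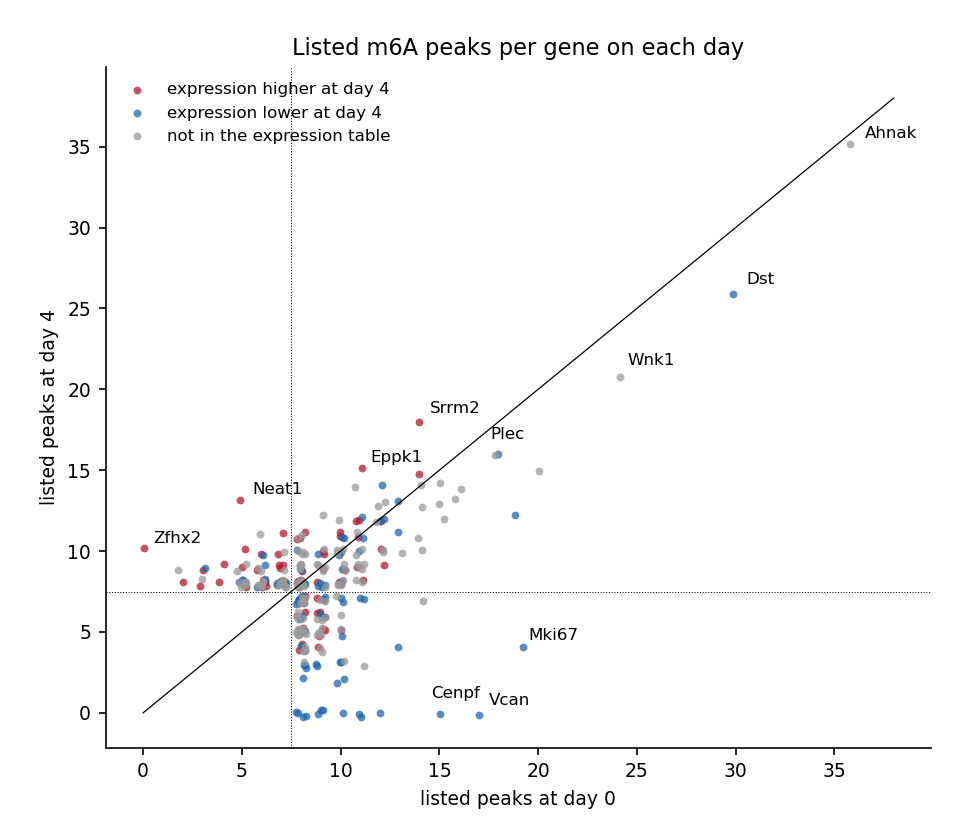
Listed peaks per gene at day 4 (vertical axis) against day 0 (horizontal axis) for the 306 genes, each a point moved by up to 0.25 so that points do not hide each other; the line marks equal counts the dotted lines the rule's edge, and colours the direction in the authors' deposited table of expression. Ahnak lies at the top near the line, while 13 genes lie at 0 peaks at day 4 and 1, Zfhx2, at 0 peaks at day 0.

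Neighbouring peaks were often close, in these genes as in others. The gap between one peak and the next of the same gene had a median of 299 bp at day 4 and 298 bp at day 0 in these genes, against 396 bp on each day in all other genes with a peak. It was at most 100 bp for 30.8% of the gaps at day 4, against 30.4% elsewhere, and for 33.1% at day 0, against 31.1% elsewhere. Joining rows that close left 92 of the 306 genes with 8 or more on either day. Zfp322a shows how much this matters: its 9 day 4 peaks joined into 2, and its 2 day 0 peaks into 1 over the same stretch. Tbc1d2b, with 9 listed peaks at day 4 and 3 at day 0, had 2 at day 4 and 3 at day 0 after joining. Sox11, with 9 at day 4 and 3 at day 0, still had 9 at day 4 and 2 at day 0.

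Single peaks in these genes had lower scores than peaks elsewhere. The score is the authors' own, on a scale the deposited files do not state, and is used within a list only. At day 4 the median was 11.6 in these genes, against 18.3 in all other genes; at day 0 it was 12.6, against 23.9. The upper quartile was 24.6 at day 4, against 47.1 elsewhere, and 28.2 at day 0, against 70.2 elsewhere. The 2 groups also differ in abundance. Among genes in the authors' deposited table of expression, the median mean normalized count was 2548 in these genes, against 833 in other genes with a peak. The part of abundance in the scores was not tested. Peak length had a median of 150 bp at day 4, against 150 bp elsewhere, and of 150 bp at day 0, against 198 bp elsewhere. Rows of a single 50 bp bin made up 30.6% at day 4, against 30.2% elsewhere, and 29.9% at day 0, against 28.5% elsewhere.

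Within a gene the highest score was set against the median score of the gene's own peaks. It was 3.23 times the gene's median score at day 4 and 3.50 times at day 0, each the median over genes. A highest value cannot lie below the median, and this ratio was not compared with other genes. The highest score of all at day 4 was 605.7, in a 150 bp peak of Raph1, a gene for a regulator of actin at the leading edge (chr1:60488316-60488465, minus strand). The highest at day 0 was 725.2, in a 945 bp peak of Rif1, a gene for a protein of DNA repair and replication timing (chr2:52111962-52112906, plus strand). The Rif1 peak at day 4 over the same place ran from 52112310 to 52112757 with a score of 370.5, and it was the fourth highest of these genes on that day. The others among the 5 highest at day 4 were a pair in Kif1b and 1 in Dopey1; at day 0 they were a pair in Nipbl, 1 in Vcpip1 and 1 in Chd9.

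Most peaks recurred on the other day. Of the day 4 peaks, 85.0% overlapped a day 0 peak by at least 1 bp on the same strand (2072 of 2439; Wilson 95% interval 83.5% to 86.3%), against 77.9% for all other genes. Of the day 0 peaks, 72.2% overlapped a day 4 peak (1986 of 2752; 70.5% to 73.8%), against 69.9% for all other genes. With an overlap of at least 50% of both peaks the shares were 58.9% at day 4, against 56.3% elsewhere, and 52.1% at day 0, against 52.4% elsewhere, so the day 0 difference changes sign. These intervals cover counting error only, and a gene with many peaks offers more places to overlap. Some peaks met several: 144 day 4 peaks (5.90%, against 4.53% elsewhere) and 210 day 0 peaks (7.63%, against 6.28%) overlapped more than 1 peak of the other list.

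A smaller share of the peaks of these genes lay near the annotated ends. The rule chose genes with many peaks, while the window at an end has a fixed length. A lower share per peak is thus built into this comparison and is given as description only, not as a trait of these genes. The genes were long, with a median annotated span of 72.5 kb (305 genes with a RefSeq span), against 22.6 kb for all other genes with a peak. Within 1000 bp of the annotated 3′ end lay 11.7% of the day 4 peaks, against 34.1% elsewhere, and 11.1% of the day 0 peaks, against 32.6% elsewhere. Yet 53.9% of the genes at day 4 had at least 1 peak there, against 57.0% of other genes, and 57.0% at day 0, against 56.3%. The highest peak of a gene lay there in 35 of 292 genes at day 4 and 42 of 304 at day 0. Near the 5′ end, within the same distance, lay 4.11% of the day 4 peaks, against 12.4% elsewhere, and 3.58% of the day 0 peaks, against 10.1% elsewhere. By gene, 68 of 293 had at least 1 peak there at day 4, against 1711 of 6652 other genes. At day 0 it was 72 of 305, against 1509 of 7074 other genes. Distances run along the genome with introns included, and whether a peak lies in an exon, intron or untranslated region was not analysed here.

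**Figure D2:**
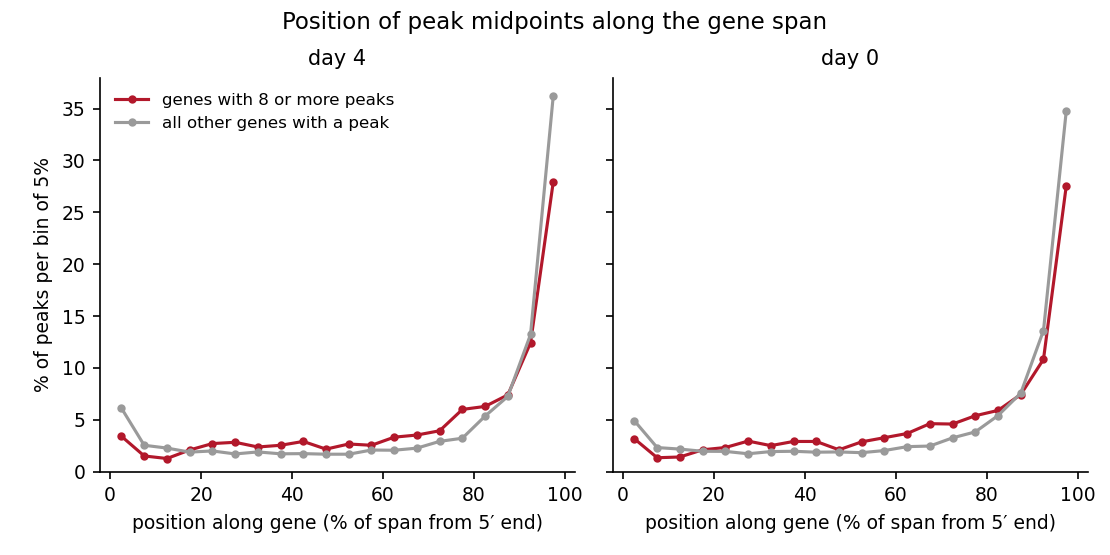
Share of peak midpoints in each 5% of the gene span from the 5′ end (horizontal axis), as a percentage of the peaks of each gene group (vertical axis), at day 4 on the left and day 0 on the right. The last 5% holds 27.9% of the peaks of the many-peak genes and 36.2% of the others at day 4; at day 0 it holds 27.5% of the peaks of the many-peak genes and 34.7% of the others.

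Expression was compared in the authors' DESeq2 test of the 3 day 4 input libraries against the 3 day 0 input libraries. Peaks of this kind are called over input, so the input libraries stand behind both readouts and peak counts and expression are not independent measurements. The authors' deposited table lists 167 of the 306 genes at an adjusted p of at most 0.05 (54.6%), beside 53.5% of all genes tested. By the authors' deposited table, 74 of them were higher at day 4 (24.2%, beside 27.1% of all genes) and 93 lower (30.4%, beside 26.4%). Of the other 7686 genes with a peak, the authors' deposited table lists 66.1%, with 31.3% higher and 34.8% lower, so the many-peak genes were below them in both directions. At least 2-fold higher in the authors' deposited table were 13 of the 306, beside 1686 of 14924 genes tested (11.3%). At least 2-fold lower were 23 of the 306, beside 1478 of 14924 (9.9%). Both shares of the many-peak genes were thus below those of all genes. The median log2 fold change of the listed genes was −0.33 by the authors' deposited table, against −0.30 for the other listed genes with a peak. Values near 0 are missing from such a table, so a median can cross 0 with a few genes.

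The direction differed with the day on which a gene reached 8 peaks. Among genes that did so at day 4 only, the authors' deposited table lists 26 as higher and 14 as lower, with a median log2 fold change of 0.50. Of the genes with 8 on both days, 28 are higher and 29 lower in the authors' deposited table, with a median of −0.29. Where 8 were reached at day 0 only, 20 were higher and 50 lower in the authors' deposited table, with a median of −0.57. Across the 167 genes the difference in peak number, day 4 minus day 0, and the log2 fold change of the authors' deposited table had a Pearson r of 0.62 and a Spearman rho of 0.55. Without the genes that lack a peak on one day, r was 0.46 and rho 0.42 over 153 genes of the authors' deposited table. The peak numbers chose these genes, unchanged genes are missing from the table, and its direction was itself read from peak presence in other genes, so these values support nothing further. Genes are not replicates, and a transcript with more reads offers more power to call a peak; the part of read depth in these values was not tested.

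**Figure D3:**
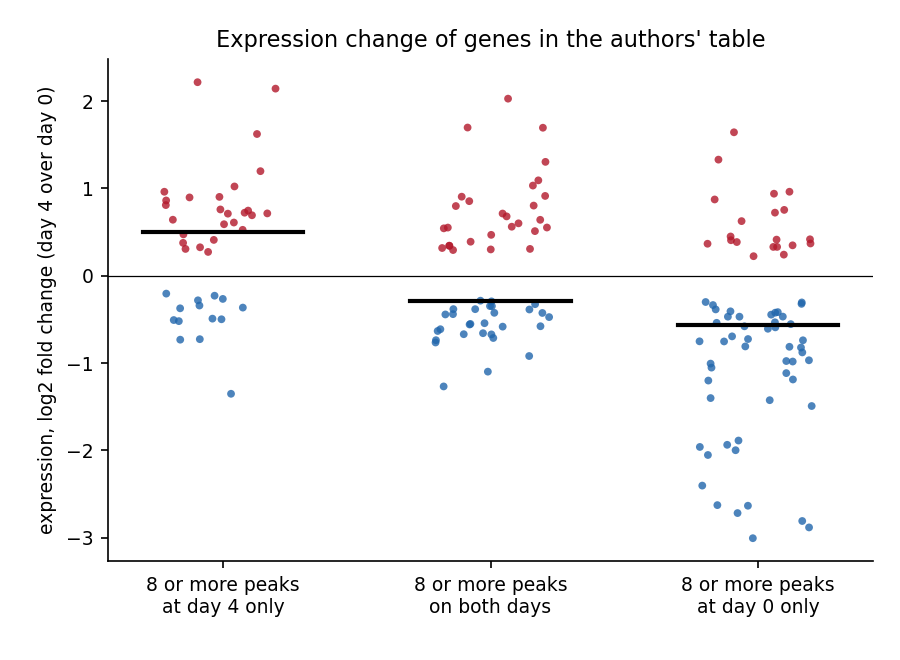
Log2 fold change of expression, day 4 over day 0 (vertical axis), for the 167 genes in the authors' deposited table, grouped by the day on which they had 8 or more peaks; each point is a gene and each bar the group median. Medians are 0.50 for day 4 only, −0.29 for both days and −0.57 for day 0 only, and no group is all on one side of 0.

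Most of the many-peak genes on the list of genome maintenance and mitosis were lower at day 4. Of the 30 genes on the genome maintenance and mitosis list, 9 had 8 or more peaks (30%, beside 3.83% of all genes with a peak). These 9 had 20 rows at day 4 and 97 at day 0. The role lists were chosen with earlier results of these data known, so no such share is a finding about a gene class. The authors' deposited table lists 8 of these 9 as lower (all genes 26.4%) and none as higher (all genes 27.1%), with a median log2 fold change of −2.23. All of the 9 except Mdc1 reached 8 peaks at day 0 only. That class as a whole had 50 genes lower and 20 higher, so the rule itself favoured lower genes here. Mki67, the gene of the proliferation antigen Ki-67 (chromosome 7, 135689784 to 135716450, minus strand), had 4 peaks at day 4 and 19 at day 0. All 4 of the day 4 peaks lay over day 0 peaks, with scores of 7.90 to 13.7 at day 4; the 19 at day 0 ranged from 1.88 to 8.44. Its long peak near the 3′ end covered 2996 bp at day 4 and 3245 bp at day 0, and the rows listed at day 0 only all lay upstream of it, as the maps along the gene show. Expression of Mki67 fell by 2.05 on the log2 scale in the authors' deposited table (SE 0.19, DESeq2 adjusted p 2.33e-27).

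Another 4 genes of the list with roles at the centromere or spindle had no listed peak at day 4. Cenpf had 15 at day 0 and in the authors' deposited table a log2 fold change of −2.72 (SE 0.19, DESeq2 adjusted p 1.11e-45). Cenpe, the kinetochore motor, had 10 at day 0 and −2.63 in the authors' deposited table (SE 0.18). Aspm, which organises spindle poles, had 9 at day 0 and −2.40 in the authors' deposited table (SE 0.16). Casc5, the kinetochore scaffold, had 8 at day 0 and the largest fall of all 306 genes, −3.01 in the authors' deposited table (SE 0.19). The repair gene Brca2 had 11 at day 0 and −1.94 in the authors' deposited table (SE 0.19). The exception in peak number was Mdc1, a DNA damage mediator, with 8 peaks at day 4 and 6 at day 0, although the authors' deposited table lists it at −1.35 (SE 0.12). Nipbl, the cohesin loader, had 6 at day 4 and 9 at day 0 and is not in the authors' deposited table.

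In all, 13 of the 306 genes had no peak at day 4, and all 13 were lower in the authors' deposited table, by 0.74 to 3.01 on the log2 scale. Of 784 genes outside the 306 with day 0 peaks only and a listed expression change, 95.9% were lower too. The direction was read from such genes, so the fall of all 13 is no finding about many-peak genes. Outside cell division, the one of the 13 with the most day 0 peaks was Vcan, the gene of the matrix proteoglycan versican (chromosome 13, 89655309 to 89743027, minus strand). It had 17 at day 0 with scores of 4.34 to 43.3, and by the authors' deposited table a log2 fold change of −1.43 (SE 0.16, DESeq2 adjusted p 6.44e-18). Mdn1, for a ribosome assembly ATPase, had 12 at day 0 and −1.49 in the authors' deposited table (SE 0.13), and Ticrr, for a regulator of replication initiation, 11 at day 0 and −2.81 (SE 0.17). The innate immune receptor gene Nod2 had 8 at day 0 and −2.63 in the authors' deposited table (SE 0.17). Brca2, Alms1, Nin, Nol8 and Mvb12b are among the 13 too. A listed peak that is missing is not a measured absence of the mark, since a transcript with few reads gives few peaks; the levels in each day's libraries are not analysed here.

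Other genes with large falls had some peaks at day 4. Slc7a1, for a cationic amino acid transporter, had 3 peaks at day 4 and 8 at day 0 and fell by 2.88 on the log2 scale in the authors' deposited table (SE 0.12). Hspa9, for the mitochondrial chaperone mortalin, had 5 at day 4 and 8 at day 0 and fell by 2.00 in the authors' deposited table (SE 0.12). Rin1, for a Ras effector, had 3 at day 4 and 8 at day 0 and fell by 1.96 in the authors' deposited table (SE 0.12). Raph1, the gene with the highest peak at day 4, had 3 at day 4 and 10 at day 0 and fell by 1.89 in the authors' deposited table (SE 0.16). Its top peak thus stands in a gene with lower expression and fewer listed peaks at day 4.

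**Figure D4:**
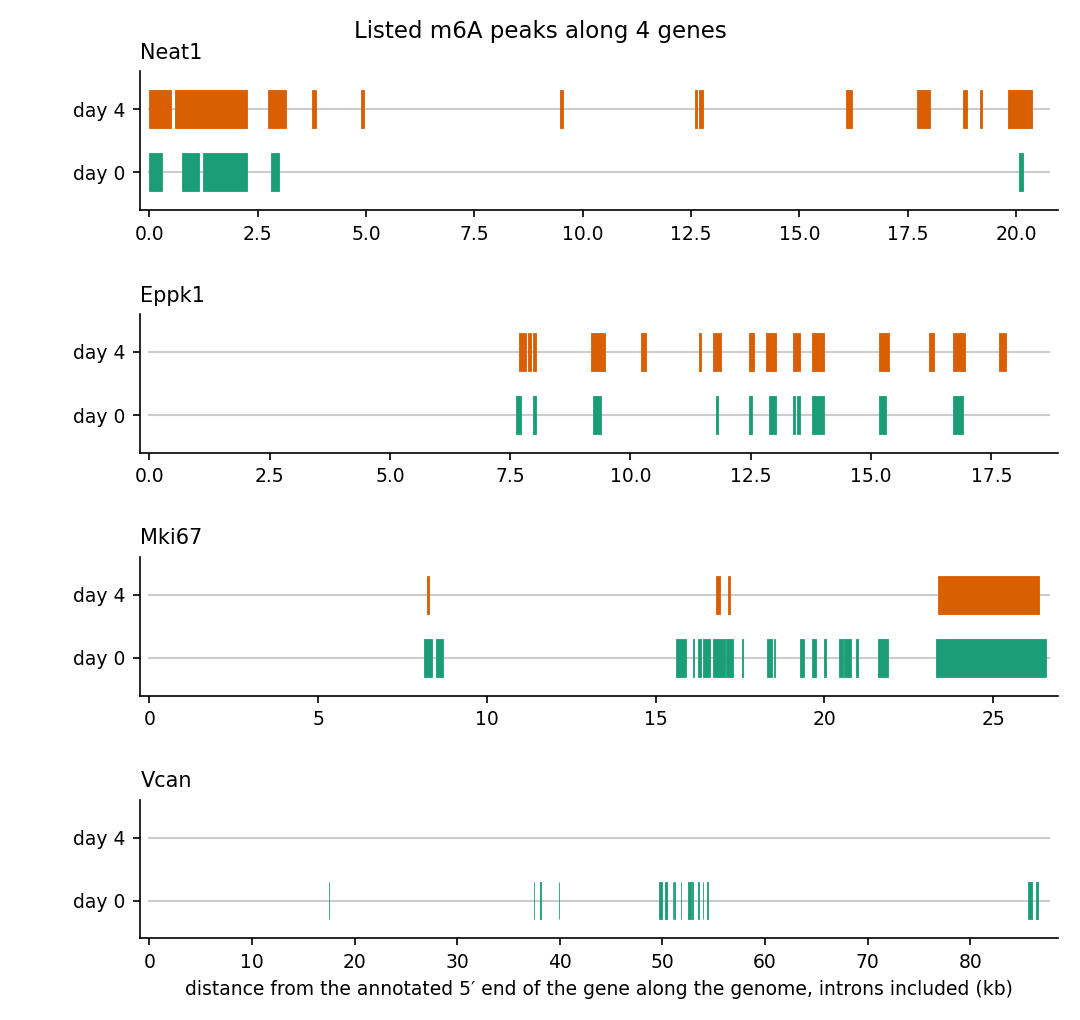
Listed peaks of Neat1, Eppk1, Mki67 and Vcan (from top to bottom) as bars along the gene, in kb from the annotated 5′ end with introns included; in each panel day 4 is the upper track and day 0 the lower. Neat1 has 13 peaks at day 4 and 5 at day 0, Eppk1 15 at day 4 and 11 at day 0, Mki67 4 at day 4 and 19 at day 0, and Vcan 0 at day 4 and 17 at day 0.

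Nuclear RNAs and regulators of transcription stood on both sides. Of 42 genes on that list, 18 had 8 or more peaks (42.9%, beside 3.83% of all genes with a peak). These 18 had 186 rows at day 4 and 184 at day 0. The authors' deposited table lists 4 of the 18 as higher (all genes 27.1%), 5 as lower (all genes 26.4%) and 9 not at all. The long noncoding RNA Neat1, the scaffold of nuclear paraspeckles (chromosome 19, 5824708 to 5845480, minus strand), had 13 peaks at day 4 and 5 at day 0. Its 5 day 0 peaks had scores of 52.5 to 327 and each overlapped a day 4 peak. The 9 day 4 peaks without a partner lay between them along the body of the RNA. Neat1 rose by 0.90 on the log2 scale in the authors' deposited table (SE 0.12, DESeq2 adjusted p 3.22e-12).

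Malat1 had 15 peaks at day 4 and 14 at day 0. It rose by 1.09 on the log2 scale in the authors' deposited table (SE 0.13, DESeq2 adjusted p 2.89e-16), with 11 of its 15 day 4 peaks over a day 0 peak. Srrm2 was higher by 0.34 in the authors' deposited table (SE 0.12). Sox11, a SoxC transcription factor that is not on the list, rose by 2.14 in the authors' deposited table (SE 0.15). Its 9 day 4 peaks included 2 that overlapped its 3 day 0 peaks. Zfhx2, a zinc finger homeobox gene also not on the list, was alone in having no peak at day 0. It had 10 at day 4 with scores of 7.52 to 41.3, and rose by 1.20 in the authors' deposited table (SE 0.20, DESeq2 adjusted p 9.37e-09). Med1, a Mediator subunit, had 12 peaks at day 4 and 11 at day 0 and was lower in the authors' deposited table (log2 fold change −0.67, SE 0.17).

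Chromatin regulators had many peaks on both days. Of 55 on the list all had a peak and 23 had 8 or more, with 207 rows at day 4 and 225 at day 0. That was 41.8%, beside 41.9% of the cytoskeletal list, 42.9% of the transcription list and 3.83% of all genes with a peak. The authors' deposited table lists 6 of the 23 as higher (all genes 27.1%), 3 as lower (all genes 26.4%) and 14 not at all. After Kmt2a came its relatives Kmt2c, with 13 peaks at day 4 and 16 at day 0, and Kmt2d, with 13 at day 4 and 15 at day 0. The chromatin remodeller Atrx had 13 at day 4 and 12 at day 0. None of these is in the authors' deposited table of expression; Baz2b, of the same list, was higher by 0.91 (SE 0.13). An absent gene was either not called or not tested.

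Cytoskeletal linkers and giant scaffold proteins gave 18 genes of the 43 listed (41.9%, beside 3.83% of all genes with a peak). These 18 had 224 rows at day 4 and 240 at day 0. The authors' deposited table holds 4 of the 18 as higher (all genes 27.1%), 4 as lower (all genes 26.4%) and 10 not at all. The plakins and their partners did not move together: Plec was lower in the authors' deposited table (log2 fold change −1.27, SE 0.27, DESeq2 adjusted p 1.13e-05). Dst was also lower there (−0.56, SE 0.15, in the authors' deposited table), as was envoplakin, Evpl (−0.76, SE 0.16). Dsp was higher by 0.87 in the authors' deposited table (SE 0.25). Epiplakin, Eppk1, had 15 peaks at day 4 and 11 at day 0 and was higher by 1.03 in the authors' deposited table, with a large SE of 0.39 (DESeq2 adjusted p 0.0161). All 11 of its day 0 peaks overlapped a day 4 peak.

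Signalling and adhesion genes gave 14 of 55 (25.5%, beside 3.83% of all genes with a peak), with 141 rows at day 4 and 160 at day 0. The authors' deposited table has 2 of the 14 as higher (all genes 27.1%), 5 as lower (all genes 26.4%) and 7 not at all. Fat1 had 15 peaks at day 4 and 20 at day 0. Its relative Fat2 had 12 at day 4 and 19 at day 0 and was lower in the authors' deposited table (log2 fold change −0.92, SE 0.18). The hepatocyte growth factor receptor gene Met had 5 at day 4 and 8 at day 0 and was lower in the authors' deposited table (log2 fold change −1.40, SE 0.12). The Wnt pathway gene Apc had 12 on each day and was higher by 0.34 in the authors' deposited table (SE 0.15).

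The list of ubiquitin ligases and deubiquitinases gave 4 of 36 (11.1%), among them Huwe1, Usp54 and Ranbp2, with 39 rows at day 4 and 37 at day 0. Ranbp2, whose product is a SUMO ligase of the nuclear pore, is strictly neither. It holds 10 of these rows at day 4 and 9 at day 0. Huwe1 had 12 peaks on each day, with 9 of those at day 4 and 8 of those at day 0 overlapping one of the other day. It was lower in the authors' deposited table (−0.63, SE 0.15), while Usp54 was higher (0.80, SE 0.12). Of the 20 m6A writers, erasers and readers checked, 17 had at least 1 peak and none had 8. Among all genes with a peak 3.83% had 8 or more, so a count of 0 is near that share. The 7 lists cover 86 of the 306 genes.

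Some of the largest rises were in genes outside these lists. Plekhg1, a guanine nucleotide exchange factor of the pleckstrin homology family, had 8 peaks at day 4 and 6 at day 0 and rose by 2.22 on the log2 scale in the authors' deposited table (SE 0.16). The lipid desaturase gene Scd2 had 9 on each day and rose by 2.03 in the authors' deposited table (SE 0.15). Klhl24, for a ubiquitin ligase adaptor known to affect keratin turnover in human skin, had 10 at day 4 and 9 at day 0 and rose by 1.70 in the authors' deposited table (SE 0.19). The phosphate transporter gene Slc20a1 had 6 at day 4 and 9 at day 0 and rose by 1.64 in the authors' deposited table (SE 0.09). Col4a2, for a basement membrane collagen, had 10 at day 4 and 5 at day 0 and rose by 1.62 in the authors' deposited table (SE 0.12). Ptgs2, the inducible prostaglandin synthase, had 8 at day 4 and 2 at day 0 and rose by 0.86 in the authors' deposited table (SE 0.15).

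Methylation changes come from the authors' comparison of the days at sites, a table with a log fold change, whose base is not stated, and a false discovery rate. It draws on the same libraries as the peaks, so its counts are described without a test. The authors' deposited table lists 272 sites in 149 of the 306 genes: 182 gains at day 4 and 90 losses. Over all sites tested, 6.96% were called, 4.79% as gains and 2.17% as losses. Gains made up 66.9% of the sites in these genes, and 68.8% of all 2561 sites in the authors' deposited table. Per 100 listed peaks there were 5.24 called sites in these genes, against 6.90 elsewhere, from the authors' deposited table. By gene, the authors' deposited table has at least 1 gain in 101 of the 306 and in 1337 other genes. At least 1 loss is in 71 of the 306 and in 668 other genes, while 7686 other genes have a peak. Called sites were thus more frequent per gene and less frequent per peak. Both rates depend on the peak number that chose these genes, and are description only.

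Gains were shorter than losses by the median and more often near the gene ends, as they were in all other genes. Among finite values, gains had a median log fold change of 1.5 by the authors' deposited table, and losses one of −0.79; a further 6 gains and 4 losses are infinite. Gains had a median length of 369.5 bp and losses of 873 bp, and 23.1% of gains but 10% of losses in the authors' deposited table spanned at most 100 bp. In all other genes of the authors' deposited table the medians were 1.87 for gains and −0.84 for losses, the median lengths 249 bp for gains and 646 bp for losses, and the shares of at most 100 bp 36.4% of gains and 12% of losses. Within 1000 bp of the 5′ end lay 14.8% of gains and 5.56% of losses of the authors' deposited table, and near the 3′ end 19.2% of gains and 7.78% of losses. For all other genes the authors' deposited table gives 25.4% of gains and 8.23% of losses near the 5′ end, and 41.3% of gains and 27.7% of losses near the 3′ end. Of the gains, 32 lay on no listed peak of either day (17.6%, against 29.3% of gains in other genes), and of the losses 6, by the authors' deposited table.

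Some genes had sites of both directions. Of the 149 genes, 77 had a single site in the authors' deposited table, 42 a gain and 35 a loss. Of the 72 genes with 2 or more, 36 had only gains in the authors' deposited table, 13 only losses and 23 both. Of the 26 genes with 3 or more sites, 17 had only gains in the authors' deposited table and 2, Setd2 and Trip11, only losses. Setd2, the histone H3 lysine 36 methyltransferase, had 3 losses of −0.99 to −0.54 in the authors' deposited table, on 9 peaks at day 4 and 10 at day 0.

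**Figure D5:**
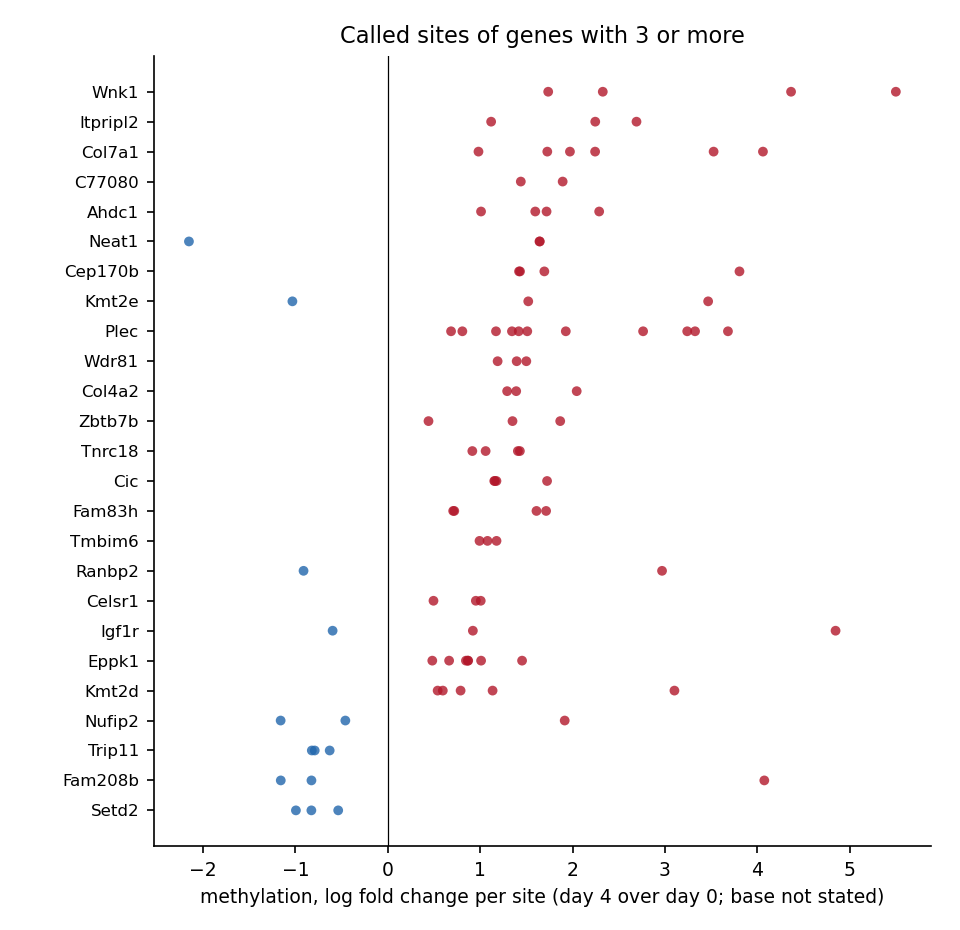
Log fold change of methylation, day 4 over day 0 (horizontal axis, base not stated), at each called site with a finite value in 25 of the 26 many-peak genes with 3 or more sites (vertical axis, ordered by their median). Plec has 11 points, all above 0, and Setd2 3, all below 0.

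Plec and Eppk1 held the most gains. Plec had 11 gained sites and no lost one in the authors' deposited table, from 0.68 to 3.68. They ran from 549 bp next to the 3′ end of the gene to a 3229 bp span 23793 bp upstream of it, in a gene whose expression was lower at day 4. Eppk1 had 7 gains of 0.48 to 1.45 in the authors' deposited table, in a gene whose expression was higher. Of 26 gains on the cytoskeletal list, against 1 loss, these genes supply 18. The other plakins had few called sites or none in the authors' deposited table: 2 gains in Dsp, 1 in Evpl, and neither gain nor loss in Dst and Macf1. The collagen gene Col7a1, for the anchoring fibrils of the basement membrane, had 6 gains of 0.98 to 4.06 in the authors' deposited table; its expression was higher (log2 fold change 0.85, SE 0.12).

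Among the other role lists, chromatin regulators had 11 gains and 9 losses in the authors' deposited table. Kmt2d had 5 of these gains, from 0.54 to 3.10 in the authors' deposited table. The nuclear RNA and transcription list had 12 gains and 6 losses in the authors' deposited table. Signalling and adhesion genes had 13 gains and 8 losses in the authors' deposited table. The ubiquitin list had 3 gains and 4 losses, and the genome maintenance list 0 gains and 2 losses, by the authors' deposited table. Ranbp2 supplied 2 of the gains and 1 of the losses of the ubiquitin list. Gains were 68.8% of all called sites, and the difference of any list from that share was not tested.

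The largest finite gain was at Wnk1, with 5.50 in the authors' deposited table over a span of 9682 bp that met no listed peak. Wnk1 also had a gain of 4.36 in the authors' deposited table over 199 bp, 638 bp from its 5′ end, under a peak at day 4 only. The large spans include introns, so the length of RNA behind such a site is shorter than the span. Slc7a1 had a gain of 5.01 over 6963 bp near its 5′ end in the authors' deposited table, although its expression fell. Ankrd12 (4.92), Igf1r (4.85), Ptprf (4.70) and Dnajc5 (4.68) came next in the authors' deposited table.

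The largest finite loss was at Setd7, with −5.21 in the authors' deposited table at 50 bp under a day 0 peak. Zfp322a followed with −4.96 in the authors' deposited table, at 50 bp off any listed peak. Dopey1 (−4.02) and Cep68 (−2.33) came next in the authors' deposited table. Neat1 had sites of both kinds: 3 gains, of 1.65, 1.64 and an infinite value in the authors' deposited table, all within 2748 bp of the 3′ end or nearer. Its 2 losses, of −2.15 and an infinite value in the authors' deposited table, were 50 bp sites in the middle of the RNA, 9339 bp and 7292 bp from the 3′ end, and neither lay on a listed peak.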

How the data were processed

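Per the labels' protocols, polyadenylated RNA was fragmented by sonication, enriched with an N6-methyladenosine antibody kit and made into stranded libraries. Per the submitters' processing notes, tools included HISAT2 2.1.0 and DESeq2 1.18.1 with genome build mm10. The sources used here name no peak caller or site test and do not say how the 3 replicates were combined.

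Per the file headers, each of the authors' 2 peak lists gives every peak an enrichment score and a p-value, not adjusted. Per its headers, the expression table deposited by the authors holds a mean normalized count (a signal averaged over libraries), a log2 fold change, its standard error and adjusted p-values. In the authors' table of methylated sites a log fold change, read as a score, stands with p-values and false discovery rates. Both tables list only genes or sites that passed 0.05; the numbers tested, 14924 genes and 36796 sites, were derived from adjusted p, rank and p. Headers do not name the direction. It was read as day 4 over day 0 from genes outside the 306: 93.8% of 496 with day 4 peaks only were positive and 95.9% of 784 with day 0 peaks only negative. For sites, 98.7% of 385 on day 4 peaks only were positive and 75.2% of 113 on day 0 peaks only negative.

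Genes were matched by symbol, 13 by a synonym, to RefSeq spans of GRCm38.p6, the assembly of mm10. Rows of 5 peaks per day, in Hjurp and Macf1, overlap another gene's. Rn45s, a ribosomal RNA precursor, is among the 306 (8 rows at day 4, 11 at day 0) and was kept. Overlap needed 1 bp on the same strand. Intervals are Wilson 95%. The genes, role lists and marker lists were chosen with earlier results of these data known. Named genes were the 12 with most peaks, the 5 largest differences in peak number each way, the 10 highest and 10 lowest log2 fold changes at a mean of at least 100, the 8 largest finite gains and losses, the 5 highest peaks per day and up to 4 per role list; others illustrate a count and were chosen after their values were seen. One gene under this rule is not reported here. The overlap, joining and position steps were tested on simulated data. Python 3.11.15, numpy 2.4.6, pandas 2.3.3, scipy 1.17.1 and matplotlib 3.10.9 were used. Alternatives were other row, p-value, overlap, fold and distance limits.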

Additional observations from a re-analysis of the deposited data

How the results depend on the processing

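No paired analysis was possible because the files hold no value per library, and for the same reason no replicate could be left out. Of 41 settings, 16 stayed within 1.5 times or within the interval and 25 moved; the cause was not tested beyond the change of genes or limits that each setting makes. The 306 genes became 120 with 10 or more rows, 124 with 8 or more on both days and 92 after rows within 100 bp were joined. Shared peaks were 58.9% at day 4 and 52.1% at day 0 with 50% overlap of both peaks, and 86.7% at day 4 and 74.8% at day 0 with peaks under p 1e-05. The 74 higher genes of the authors' deposited table became 13 at 2-fold, 28 with 10 or more rows, 48 by day 0 rows alone and 23 with joined rows; that last setting was added after the data were seen. The 93 lower genes of the authors' deposited table became 23 at 2-fold, 37 with 10 or more rows, 43 by day 4 rows alone and 23 with joined rows. The 182 gains of the authors' deposited table became 111 at a false discovery rate under 0.01, 88 with 10 or more rows and 75 with joined rows; the 90 losses became 43 under 0.01, 47 with 10 or more rows and 30 with joined rows. Peaks near the 3′ end were 6.46% at day 4 and 6.31% at day 0 within 500 bp, and 20.9% at day 4 and 20.8% at day 0 within 2000 bp. With joined rows, the median log2 fold change in the authors' deposited table was 0.80 for genes at 8 on day 4 only, 0.34 for both days, against −0.29 with rows as listed, and −0.59 for day 0 only. Depth per library is unknown, so no floor or interval from reads could be given.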
